A study of Mus musculus with 12 samples.

Results

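The genes that store, carry, take up and export iron were followed in primary mouse microglia with and without the R47H change in Trem2, and with and without interleukin-4 (IL-4). The set held 10 genes, chosen by name: Fth1, Ftl1, Ncoa4, Trf, Tfrc, Slc11a2, Slc11a1, Slc40a1, Hmox1 and Ireb2. Each matched a single identifier among the 48623 genes of the expression table, and all 10 lay among the 11204 genes that passed the filter on low expression (a mean log2(TPM + 1) above 1.5). TPM expresses a gene as a share of all transcripts in a library, corrected for transcript length, so levels may be compared between genes.

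The cultures came from cortices and hippocampi of 1- to 3-day-old mice of the C57BL/6J background. Wild-type (WT) cultures T13, T33 and T43 were compared with cultures T15, T22 and T32 that were homozygous for a Trem2 R47H knock-in (KI), a single CRISPR-made allele that in mice also lowers Trem2 expression by altered splicing. Under each name stood 1 library without treatment and 1 following 48 h of IL-4 at 20 ng/ml, which made 12 libraries in 4 groups of 3. Both libraries of a name are taken here as 1 culture, which the labels do not say in words, and differences within cultures rest on that reading. Values of single cultures are given in the order T13, T33, T43 for WT and T15, T22, T32 for KI. Per the study's methods, WT mice were littermates of the KI mice, and pups of the KI line were grown apart and genotyped later. Microglia were freed from mixed glia by mild trypsinization, and Trem2 is mutated in every cell of the KI mice, not in microglia alone.

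Iron enters cells mainly as ferric iron bound to transferrin, which the transferrin receptor takes into endosomes, where the metal is reduced and pumped to the cytosol by DMT1 (Slc11a2). Spare iron is oxidised and stored in ferritin shells built from heavy (Fth1) and light (Ftl1) chains, and it is released again when the receptor NCOA4 carries ferritin to lysosomes. Microglia and macrophages also obtain iron from haem, which haem oxygenase 1 (Hmox1) breaks down, and they release it through ferroportin (Slc40a1), the only known cellular iron exporter of mammals.

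Much of this control acts on finished transcripts, through a hairpin called the iron-responsive element (IRE) that IRP1 (encoded by Aco1) and IRP2 (encoded by Ireb2) bind when iron is scarce. Binding in the 5′ UTR blocks translation, and binding in the 3′ UTR of Tfrc protects the transcript from decay, so that a transcript level of a gene with a 5′ element reports little on its IRP-dependent translation. The sequences below show where the hairpin letters lie in these genes. Annotated UTRs (GENCODE vM21, GRCm38) were searched on the transcribed strand for a C followed by 5 bases, the loop CAGTGN and 5 bases, where at least 4 of the 5 stem positions could pair, G with T included. The 30-base windows are written 5′ to 3′ with the loop in capitals.

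In the 5′ UTR, the match lay in the transcripts of both ferritin chains and of ferroportin, and each had 5 of 5 stem pairs.
Fth1, chr19:9982732-9982761, plus strand: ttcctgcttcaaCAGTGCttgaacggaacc
Ftl1, chr7:45459778-45459807, minus strand: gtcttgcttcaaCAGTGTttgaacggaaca
Slc40a1, chr1:45925464-45925493, minus strand: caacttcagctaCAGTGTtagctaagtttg

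In the 3′ UTR, Tfrc held 4 matches with 5 of 5 stem pairs, and Slc11a2 held 1 match with 4 pairs in 1 of its annotated transcripts.
Tfrc, chr16:32631219-32631248, plus strand: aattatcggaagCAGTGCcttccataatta
Tfrc, chr16:32631598-32631627, plus strand: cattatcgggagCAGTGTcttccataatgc
Tfrc, chr16:32631663-32631692, plus strand: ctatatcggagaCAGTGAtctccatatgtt
Tfrc, chr16:32631710-32631739, plus strand: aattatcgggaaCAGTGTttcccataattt
Slc11a2, chr15:100395152-100395181, minus strand: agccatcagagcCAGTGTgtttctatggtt

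Over all annotated genes, 176 of 20521 (0.858%) held such a match in a 5′ UTR, among them 3 of the 10 iron genes, and 857 of 20867 (4.11%) held one in a 3′ UTR, among them 2 of the 10. A match gives the letters only. The other 5 genes (Trf, Slc11a1, Hmox1, Ncoa4 and Ireb2) had none in these UTRs.

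The genotype labels were checked on Trem2, which was at 1190 to 1886 TPM in the WT libraries and at 325 to 770 TPM in the KI libraries. All 16 microglial markers were expressed, with a summed level of 33007 to 47662 TPM in WT and 14515 to 33161 TPM in KI libraries. For genotype, 5 of the 16 passed the test as lower in KI (Aif1, Csf1r, Itgam, C1qb and Fcrls). The 10 astrocyte markers summed to 168 to 702 TPM in WT and 234 to 4843 TPM in KI libraries, with both T15 libraries (4843 TPM untreated and 3700 TPM after IL-4) far above the rest. Of the mural and fibroblast markers, Acta2 and Tagln were higher in KI. The 4 adult haemoglobin genes were listed at 0 in all 12 libraries. The labels give only a nominal read number for the sequencing run, and TPM does not keep the reads of each library.

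The set spanned a wide range of levels. In untreated WT cultures the order of mean TPM was Fth1 (64561 ± 12489, SD, n = 3), Ftl1 (45568 ± 6828), Hmox1 (2058 ± 120.4), Trf (812 ± 234), Slc11a1 (443 ± 7.69), Ncoa4 (64.5 ± 9.40), Slc40a1 (52.2 ± 11.6), Slc11a2 (44.4 ± 7.82), Tfrc (14.9 ± 6.76) and Ireb2 (6.78 ± 2.51). The neighbours Ncoa4 and Slc40a1, Slc40a1 and Slc11a2, and Tfrc and Ireb2 overlapped between libraries, and the other neighbours in this order did not. After IL-4 the mean of Trf stood above that of Hmox1 in both genotypes, without overlap in WT and with overlap in KI.

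The genes also differed in how far replicates spread. The SD within groups on the log2(TPM + 1) scale was smallest for Hmox1 (0.187), Fth1 (0.196) and Slc11a1 (0.197) and largest for Slc40a1 (0.671) and Ireb2 (0.692), the least abundant of the 10. The plot of the 10 genes by library shows these spreads.

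**Figure D1:**
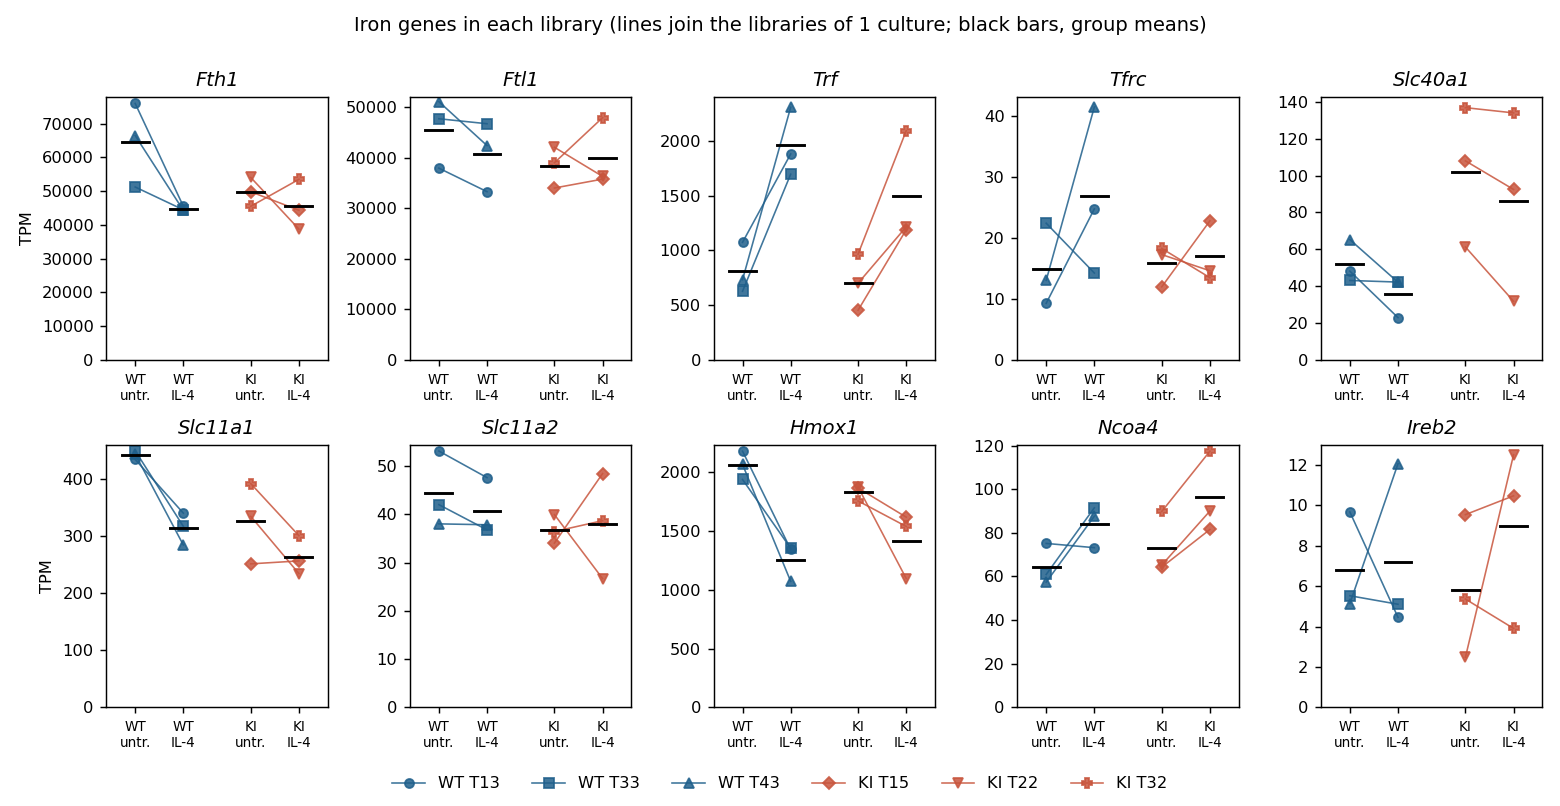
TPM (y axis, from 0, a separate scale for each gene) of the 10 iron genes in untreated (untr.) and IL-4 libraries of WT (blue) and KI (red) cultures. Points are libraries, lines join the libraries of 1 culture and black bars are group means (n = 3); Trf is higher and Hmox1 lower after IL-4 in each of the 6 cultures.

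IL-4 was tested first, by limma's moderated F-test on log2(TPM + 1) with Benjamini-Hochberg adjustment over the 11204 genes. The F-test takes the IL-4 difference together with its interaction with genotype, so that an adjusted p given beside an averaged difference belongs to both. 1 of the 10 genes passed at an adjusted p under 0.05, Trf, against 0.893% of all genes tested. The median difference of the 10 genes was −0.06 (log2), beside 0.04 over all genes, and 4 of the 10 values were above 0. Within cultures, 3 of the 10 genes (Trf, Hmox1 and Slc40a1) moved the same way in all 6 cultures, as did 8.24% of all genes tested.

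Trf (chr9:103204001-103230444, minus strand) encodes transferrin, the secreted iron carrier that the brain draws chiefly from oligodendrocytes and choroid plexus. The WT cultures held 1075, 628 and 733 TPM without IL-4 and 1882, 1697 and 2308 TPM with it. The KI cultures held 454, 701 and 967 TPM without IL-4 and 1190, 1216 and 2095 TPM with it. Untreated and IL-4 libraries did not overlap within either genotype, and the within-culture increase ran from 0.79 to 1.65 on the log2 scale, higher in 6 of 6 cultures.

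Averaged over genotypes, Trf rose 2.29-fold with IL-4 (log2 difference 1.20, SE 0.20, adjusted p = 0.0276, limma). The call was lost when WT T13, WT T33, WT T43 or KI T22 was left out in turn (adjusted p of 0.0559, 0.171, 0.262 and 0.0765), although the difference then still lay between 1.11 and 1.32. Without KI T15, the culture rich in astrocyte markers, it was 1.13 (adjusted p = 0.0134).

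The cells known for Trf were examined through their markers. The 12 oligodendrocyte markers summed to 65.0 to 130 TPM in untreated and 78.3 to 140 TPM in IL-4 libraries of WT, and to 146 to 549 TPM and 140 to 372 TPM in those of KI. Of the 6 that could be tested, none passed for IL-4 (median log2 difference −0.21). Cnp (33.8 to 56.0 TPM), Mbp (10.7 to 23.6 TPM), Olig1 (7.49 to 48.3 TPM) and Olig2 (0.734 to 9.46 TPM) were present in all 6 WT libraries, whereas Sox10, Mog and Cldn11 were at 0 in all 6, and Opalin in all 12. Of the 3 choroid plexus markers none passed the filter on low expression, and Ttr was at 0 in every library except that of KI T15 after IL-4 (0.709 TPM). The summed level of the 4 endothelial markers was higher with IL-4, without overlap, and most of it was Flt1: they summed to 21.6 to 29.1 TPM in untreated and 71.1 to 141 TPM in IL-4 libraries of WT, and to 19.4 to 23.7 TPM and 61.0 to 90.0 TPM in those of KI. Of the 2 that could be tested, Flt1 passed as higher after IL-4 (log2 difference 1.96, adjusted p = 0.00056, limma), and Pecam1 did not (0.94, adjusted p = 0.638). The WT libraries held 1.12 to 4.09 TPM of Pecam1 untreated and 8.14 to 9.19 TPM after IL-4, without overlap, and those of KI 2.35 to 4.13 TPM and 2.74 to 8.47 TPM, with overlap. Cldn5 was at 0 in all 12 libraries and Cdh5 was at most at 0.334 TPM.

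Of the astrocyte (9 tested) and of the mural and fibroblast markers (4 tested) none passed for IL-4. The IL-4 library of WT T43, which had the highest Trf level (2308 TPM) and the largest rise within a culture (1.65), stood apart in 2 collagen genes of fibroblasts, Col1a1 (85.9 TPM) and Col1a2 (81.7 TPM), against at most 7.22 and 5.16 TPM in the other WT libraries. Without WT T43 the Trf difference was 1.11, as given above. The microglial markers summed to 33007 to 34493 TPM in untreated and 37692 to 47662 TPM in IL-4 libraries of WT, without overlap, and to 14515 to 28820 TPM and 24740 to 33161 TPM in those of KI, with overlap. Of the 16, C1qa passed as higher after IL-4 (0.79, adjusted p = 0.0391, limma) and Cx3cr1 as lower (−1.16, adjusted p = 0.042). The part of these cells in the Trf values was not tested.

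The genes whose pattern was most like that of Trf, by Pearson's r of log2(TPM + 1) over the 12 libraries of 6 cultures, were Tlr8 (r = 0.963), an endosomal RNA receptor, Daglb (r = 0.951), a diacylglycerol lipase, and Dnmt3a (r = 0.948), a DNA methyltransferase. The likeness is a description, and the libraries of a culture share their cells.

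Tfrc (chr16:32608920-32632794, plus strand), the receptor for loaded transferrin and the gene with 4 IRE matches, did not show the pattern of its ligand. Its levels in WT were 9.27, 22.4 and 13.03 TPM untreated and 24.7, 14.2 and 41.4 TPM after IL-4. Its levels in KI were 12.0, 17.3 and 18.2 TPM untreated and 22.8, 14.6 and 13.5 TPM after IL-4. The groups overlapped in both genotypes, and 3 cultures were higher and 3 lower after IL-4 (log2 difference 0.42, SE 0.29, adjusted p = 0.928, limma). The difference was 0.77 without WT T33 and 0.22 without WT T43 or without KI T15, and passed in none of these.

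Slc11a2 (chr15:100387898-100425072, minus strand), which encodes DMT1, stayed within 26.7 and 53.1 TPM over the 12 libraries. Its IL-4 difference was −0.06 (SE 0.17, adjusted p = 1.0), with 2 cultures higher and 4 lower.

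Of the storage genes, Fth1 (chr19:9980598-9985098, plus strand) was the most abundant gene of all in 10 of the 12 libraries and the second in the other 2. The WT libraries held 75990, 51230 and 66461 TPM of it untreated and 45513, 44484 and 44320 TPM after IL-4, so that these groups did not overlap. The KI libraries held 49832, 54064 and 45519 TPM untreated and 44337, 38760 and 53497 TPM after IL-4, which overlapped. The averaged difference of −0.32 (SE 0.18) did not pass the test (adjusted p = 0.884, limma); 5 cultures were lower and 1 (KI T32) higher.

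Ftl1 (chr7:45457944-45459884, minus strand) ranked from the most to the fourth most abundant gene. In untreated and IL-4 libraries of WT it ranged from 37929 to 51078 TPM and from 33276 to 46713 TPM, and in those of KI from 34002 to 42051 TPM and from 35758 to 47912 TPM. Its IL-4 difference was −0.06 (SE 0.18, adjusted p = 1.0). Both ferritin genes have processed copies that can share reads: the annotated copies held at most 0.0128% of the summed TPM of Fth1 and its 2 copies, and 0.522% to 1.01% of that of Ftl1 and its 3 copies.

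Together the ferritin chains made up 9.89% to 11.8% of all TPM in untreated WT cultures and 7.88% to 9.12% after IL-4, without overlap. In KI cultures the share was 8.38% to 9.61% untreated and 7.51% to 10.1% after IL-4. The ratio of Ftl1 to Fth1, which does not depend on how libraries are scaled, was 0.499, 0.931 and 0.769 in WT without IL-4 and 0.731, 1.05 and 0.956 with it. The KI ratios were 0.682, 0.778 and 0.857 without IL-4 and 0.807, 0.937 and 0.896 with it. It was higher after IL-4 in 6 of 6 cultures, by 0.06 to 0.55 on the log2 scale; the ratio was examined after these values were seen, and no test was made of it.

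**Figure D2:**
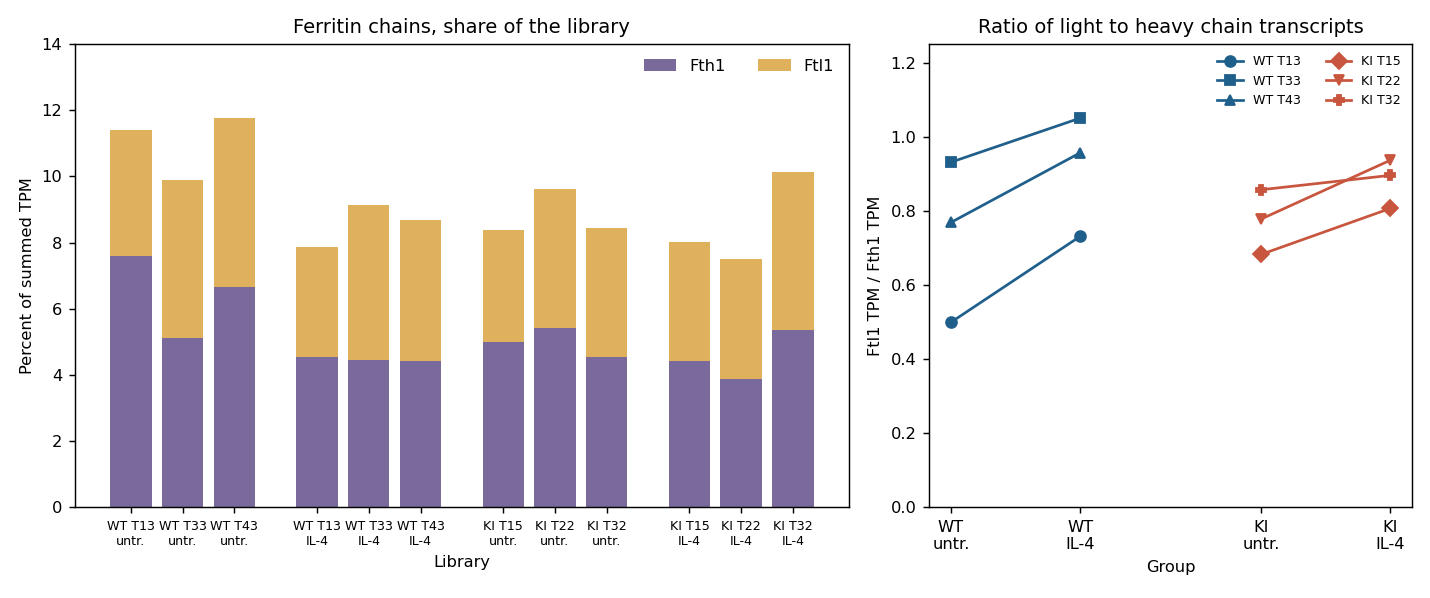
Left, percent of the summed TPM (y axis) held by Fth1 (purple) and Ftl1 (yellow) in each library, as stacked bars; right, the ratio of Ftl1 to Fth1 TPM (y axis) with lines joining the libraries of 1 culture. The untreated WT libraries hold 9.89% to 11.8% and the other groups 7.51% to 10.1%, and the ratio is higher after IL-4 in all 6 cultures.

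Ncoa4 (chr14:32159865-32179855, plus strand), the receptor that delivers ferritin for degradation, had levels of 75.1, 60.9 and 57.4 TPM in WT without treatment and 73.2, 91.5 and 87.6 TPM with IL-4. For KI the levels were 64.2, 65.2 and 89.8 TPM without treatment and 81.5, 90.0 and 117 TPM with IL-4. It was higher in 5 of 6 cultures, with overlapping groups in both genotypes, and did not pass the test (log2 difference 0.39, SE 0.15, adjusted p = 0.707, limma).

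Hmox1 (chr8:75093621-75100589, plus strand), the inducible enzyme that frees iron from haem, stood at 2176, 1935 and 2063 TPM in untreated WT and at 1342, 1352 and 1070 TPM under IL-4. The KI values were 1863, 1871 and 1753 TPM untreated and 1615, 1094 and 1536 TPM under IL-4. Untreated and IL-4 libraries did not overlap within either genotype, and all 6 cultures were lower after IL-4, by between 0.19 and 0.95 on the log2 scale. The averaged difference was −0.55 (SE 0.12). The F-test with the interaction missed the threshold (adjusted p = 0.0865, limma), and the test of the averaged difference alone passed it (adjusted p = 0.0342), which brought the genes past the threshold to 2 of 10 (1.35% of all genes passed that test). The F-test passed without KI T15 (adjusted p = 0.0379).

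Slc40a1 (chr1:45908068-45926523, minus strand), which encodes ferroportin, was lower after IL-4 in 6 of 6 cultures, but by as little as 0.03 (log2) in WT T33 and KI T32 and by as much as 1.04 in WT T13. The IL-4 difference was −0.48 (SE 0.32, adjusted p = 0.963, limma). Slc11a1 (chr1:74375195-74386062, plus strand), the metal pump NRAMP1 of phagosomes, of which C57BL/6J mice carry a natural loss-of-function allele, measured 435, 450 and 444 TPM in WT untreated and 341, 318 and 285 TPM after IL-4. KI cultures had 252, 335 and 393 TPM untreated and 257, 235 and 301 TPM after IL-4. The WT groups did not overlap and the KI groups did, and the averaged difference of −0.39 (SE 0.12) did not pass (adjusted p = 0.425).

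Ireb2 (chr9:54863789-54912530, plus strand), which encodes IRP2, ranged from 2.48 to 12.5 TPM over the 12 libraries, with 3 cultures higher and 3 lower after IL-4 (log2 difference 0.29, SE 0.39, adjusted p = 0.999). The spread between its libraries exceeded any difference between its groups.

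**Figure D3:**
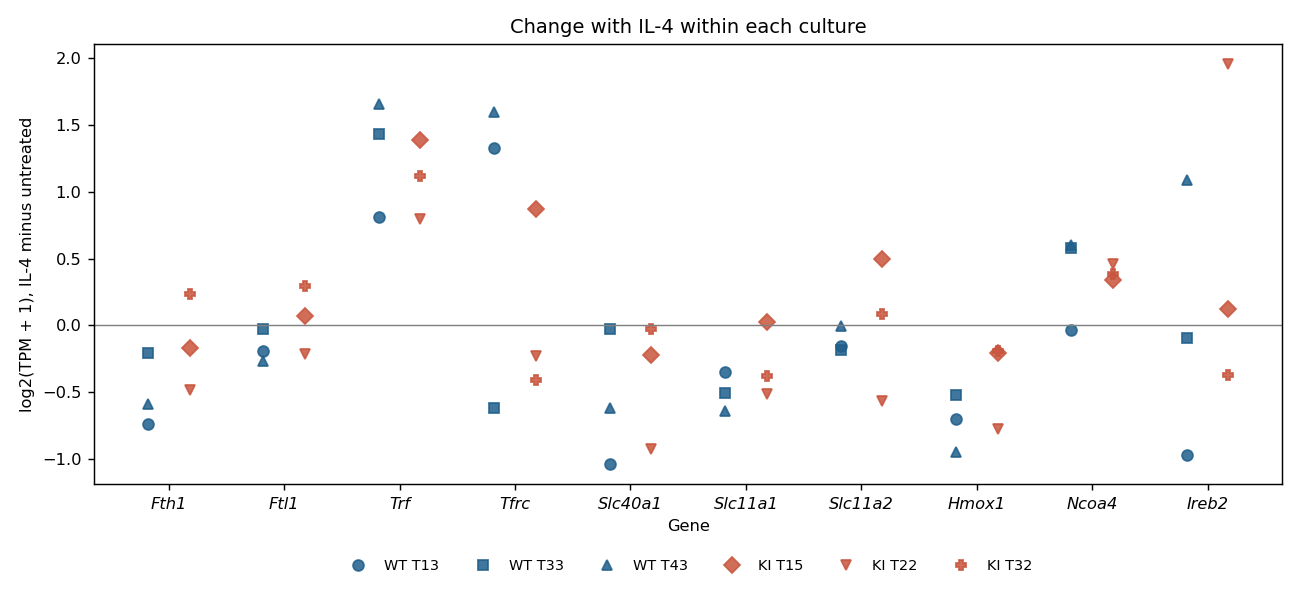
Difference of log2(TPM + 1), IL-4 minus untreated (y axis), within each of the 3 WT (blue) and 3 KI (red) cultures for the 10 iron genes. The 6 points of Trf lie between 0.79 and 1.65, those of Hmox1 between −0.95 and −0.19, and those of Tfrc and Ireb2 on both sides of 0.

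Within single genotypes, none of the 10 genes passed for IL-4 in limma's test without a block. With culture as a block, Hmox1 and Trf passed in WT and Trf in KI, as given in the closing section. In WT cultures 3 of the 10 had an unadjusted p under 0.05, beside 6.27% of all genes, and in KI cultures 2 of the 10 did, beside 7.39%. At the adjusted threshold 0.571% of all genes passed in WT and 0.402% in KI. Trf was the nearest to the threshold in both, with log2 differences of 1.30 (SE 0.29, adjusted p = 0.0776) in WT and 1.10 (SE 0.29, adjusted p = 0.203) in KI. These contrasts were set against each other only through the interaction of genotype and IL-4. None of the 10 genes passed that test, 0 of the 10 had an unadjusted p under 0.05, and 0% of all genes passed, with 357 of 11204 (3.19%) at an unadjusted p under 0.05. For Trf the response differed by −0.20 (SE 0.41) between KI and WT, for Hmox1 by 0.33 (SE 0.24) and for Fth1 by 0.37 (SE 0.35), all with an adjusted p of 1.0. These standard errors were of the size of the differences, so the missing calls do not show equal responses. At a simulated log2 change of 2, 33.5% of interaction changes were recovered, and smaller changes were not simulated.

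Between the genotypes, none of the 10 genes passed limma's F-test over both treatments, against 1.65% of all genes tested, and 2 (Slc40a1 and Slc11a1) had an unadjusted p under 0.05, beside 16.1% of all genes. The median difference of the 10 genes, KI minus WT, was −0.15 (log2), beside 0.13 over all genes, and 2 of the 10 values were above 0. In bulk cultures, fewer microglia and less RNA per microglial cell cannot be told apart.

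Slc40a1 had the largest value of the set. Without treatment it measured 48.2, 43.1 and 65.3 TPM in WT against 108, 61.3 and 137 TPM in KI. After IL-4 it measured 23.0, 42.2 and 42.2 TPM in WT against 92.5, 31.8 and 134 TPM in KI. KI T22 lay within the WT range in both treatments, and KI T15 and T32 lay above it in both. The averaged difference was 0.99 (SE 0.32), a 1.98-fold higher level in KI, with an adjusted p of 0.228 (limma). Without KI T22 the difference was 1.44 and passed (adjusted p = 0.0272), so the call turned on that culture. Without KI T32 it was 0.65 (adjusted p = 0.464), without KI T15 it was 0.87 (adjusted p = 0.484), and with the astrocyte marker score as a covariate it was 0.88 (adjusted p = 0.577).

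Slc11a1 was the only one of the 10 whose culture means did not overlap between genotypes, a pattern that 22.4% of all genes tested had. Untreated WT cultures lay at 435 to 450 TPM and untreated KI cultures at 252 to 393 TPM, whereas the IL-4 libraries of the genotypes overlapped. The averaged difference was −0.36 (SE 0.12, adjusted p = 0.234, limma). Trf was at lower means in KI than in WT, untreated (708 ± 256 against 812 ± 234 TPM, SD, n = 3) and after IL-4 (1500 ± 515 against 1962 ± 314 TPM), with overlapping libraries in both and an averaged difference of −0.33 (SE 0.20, adjusted p = 0.644). That difference was −0.11 without KI T15 (adjusted p = 0.834) and −0.59 without KI T32 (adjusted p = 0.198).

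For the other genes the genotype difference lay between −0.20 (Tfrc) and 0.18 (Ncoa4), all with an adjusted p of at least 0.716. Fth1 had −0.17 (SE 0.18) and Ftl1 −0.14 (SE 0.18), and Hmox1 (−0.0038, SE 0.12) and Ireb2 (−0.01, SE 0.39) had the smallest values. Without 1 culture, the value ran from −0.25 to −0.10 for Fth1 and from −0.27 to −0.056 for Ftl1. It ran from −0.33 to −0.04 for Tfrc and from 0.024 to 0.27 for Ncoa4. Untreated Hmox1 libraries did not overlap between genotypes (1935 to 2176 TPM in WT and 1753 to 1871 TPM in KI), and the IL-4 libraries did (1070 to 1352 TPM and 1094 to 1615 TPM). The untreated Hmox1 difference was −0.17 (SE 0.17) and did not pass (adjusted p = 0.659, limma).

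Some markers of other cells were higher in KI. The 9 mural and fibroblast markers summed to 141 to 553 TPM in WT and 701 to 1313 TPM in KI libraries. Most of this was Acta2 and Tagln. Of the 4 tested, Acta2 (log2 difference 2.11, adjusted p = 0.00296, limma) and Tagln (1.93, adjusted p = 0.00626) passed as higher in KI. Col1a1 (0.54, adjusted p = 0.511) and Col1a2 (0.61, adjusted p = 0.588) did not pass. Of the 6 oligodendrocyte markers tested, Olig1 passed as higher in KI (log2 difference 2.69, adjusted p = 0.0438, limma; median of the list 1.15), and of the 9 astrocyte markers tested none passed (median 2.01). The part of mural cells, fibroblasts and oligodendrocytes in the genotype values, those of Trf included, was not tested. Because the microglial markers were lower in KI, differences were also taken relative to the mean log2 level of these markers in each library. This moved the median of all genes from 0.13 to 0.80 and put 3 of the 10 genes past the threshold, as it did 36.4% of all genes: Slc40a1 (1.65, adjusted p = 0.0174), Ncoa4 (0.84, adjusted p = 0.0256) and Hmox1 (0.66, adjusted p = 0.0433). Only Slc40a1 and Ncoa4 of these lay above the shifted median.

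Taken one treatment at a time, none of the 10 genes passed between genotypes in limma's tests. In untreated cultures 1 of the 10 (Slc11a1, −0.46, SE 0.17, adjusted p = 0.197) had an unadjusted p under 0.05, as had 16.8% of all genes, and 0.91% of all genes passed. After IL-4 1 of the 10 (Slc40a1, 1.07, SE 0.45, adjusted p = 0.435) had an unadjusted p under 0.05, as had 10.3% of all genes, and 0.0179% of all genes passed.

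**Figure D4:**
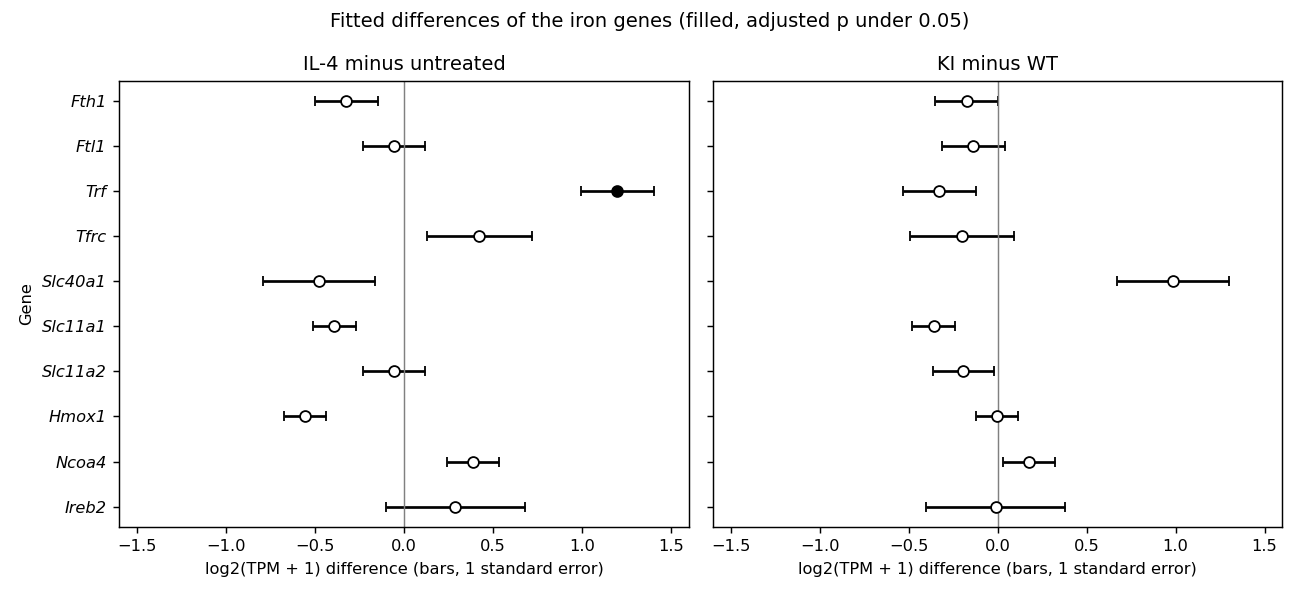
Fitted differences in log2(TPM + 1) (x axis) of the 10 iron genes for IL-4 minus untreated (left) and KI minus WT (right), each averaged over the other factor, with bars of 1 standard error; filled points have an adjusted p under 0.05. Only Trf with IL-4 (1.20) is filled, and Slc40a1 has the largest genotype value (0.99).

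A further 64 genes of iron and haem handling, listed by role, set the 10 genes in their pathway. Of these, 63 were in the table and 47 passed the filter. For IL-4, 2 of the 47 passed (4.26%, beside 0.893% of all genes), both higher. For genotype 1 of the 47 passed, as higher (2.13%, near the 1.65% of all genes). The median difference of the 47 was 0.09 for IL-4 (0.04 over all genes) and 0.11 for genotype (0.13 over all genes).

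Of the 9 tested genes of iron uptake, Hfe passed for IL-4. Hfe encodes the membrane partner of the transferrin receptors that is mutated in hereditary haemochromatosis. Its WT levels were 33.7, 16.0 and 30.7 TPM untreated and 124, 93.9 and 106 TPM after IL-4. Its KI levels were 43.05, 22.3 and 10.3 TPM untreated and 63.7, 69.4 and 63.1 TPM after IL-4. It rose in 6 of 6 cultures, with no overlap in either genotype (log2 difference 1.79, SE 0.28, adjusted p = 0.0143, limma), and lost the call without WT T13, T33 or T43 or KI T22 (adjusted p of 0.0785, 0.105, 0.121 and 0.0692).

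Lcn2, which encodes lipocalin 2, a protein that binds iron-loaded siderophores, passed for genotype. Without IL-4 it had 70.8, 81.4 and 102 TPM in WT and 161, 393 and 310.3 TPM in KI. With IL-4 it had 28.1, 22.1 and 46.0 TPM in WT and 103, 162 and 58.5 TPM in KI. The genotypes did not overlap in either treatment (log2 difference 1.67, SE 0.27, adjusted p = 0.0222), and leaving out WT T13, T33, T43 or KI T22 lost the call (adjusted p of 0.0616, 0.153, 0.0674 and 0.0511). With the astrocyte marker score as a covariate the difference was 2.00 (adjusted p = 0.0209), and without KI T15 it was 1.84 (adjusted p = 0.0292). Activated astrocytes also express Lcn2, and their part in these values was not tested. Its IL-4 difference of −1.43 (SE 0.27) had the same direction in 6 of 6 cultures. The F-test missed the threshold for it (adjusted p = 0.0563), and the test of the averaged difference alone passed (adjusted p = 0.0152), as did the F-test with a filter at 3 (0.0416), with the astrocyte covariate (0.0125) and without KI T15 (0.0196).

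Of the 8 genes of haem synthesis, Alas1, the rate-limiting first enzyme outside red cells, passed for IL-4. The WT cultures held 123, 76.1 and 104 TPM untreated and 226, 194 and 201 TPM after IL-4. The KI cultures held 174, 107 and 72.3 TPM untreated and 245, 193 and 287 TPM after IL-4. It rose in 6 of 6 cultures (log2 difference 1.08, SE 0.19, adjusted p = 0.0391), and of the 6 cultures KI T15 alone could be left out with the call kept (adjusted p of 0.0996 to 0.244 without one of the others).

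None of the other storage genes (3 tested), exporters and hepcidin regulators (2 tested), iron regulators (7 tested), mitochondrial iron genes (10 tested) or genes of haem uptake and breakdown (8 tested) passed for either factor. The 10 NRF2 target genes, which share their regulator with Hmox1 and the ferritins, had none past the threshold either. Their medians were 0.06 for IL-4 (0.04 over all genes) and 0.52 for genotype (0.13 over all genes). Their mean log2(TPM + 1) was highest in KI T15 (8.08 untreated and 7.75 after IL-4), against 6.63 to 7.44 in the other libraries. Hamp2, Hephl1 and Tmprss6 were listed at 0 in all 12 libraries, as were Ftmt and Ltf.

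**Figure D5:**
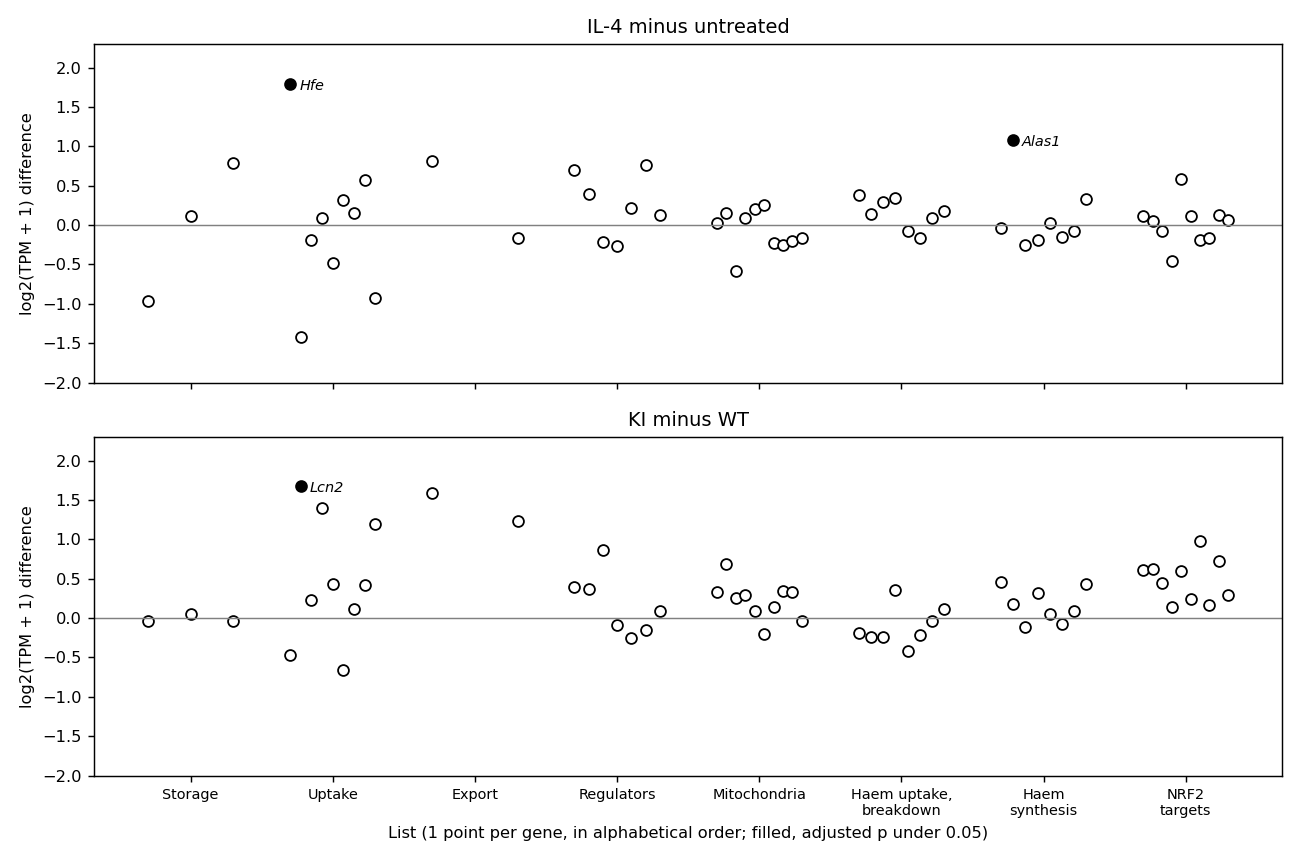
Differences in log2(TPM + 1) (y axis) of the other iron and haem genes and of NRF2 targets, by list (x axis), for IL-4 minus untreated (top) and KI minus WT (bottom); each point is a gene and filled points have an adjusted p under 0.05. Hfe (1.79) and Alas1 (1.08) are filled for IL-4 and Lcn2 (1.67) for genotype.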

How the data were processed

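RNA was read from poly(A)-primed libraries. Per the labels and the study's methods, the deposited values are TPM per gene, which the authors estimated with Salmon on GRCm38 from reads cleaned by Trim Galore; versions are not given in the sources used here. Read counts, which the authors tested, were not analysed here. No library was identical to another.

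The 10 genes and all gene lists were chosen with earlier results of these data known. Symbols were taken from the GENCODE vM21 annotation. Genes with a mean log2(TPM + 1) above 1.5 were fitted with limma 3.58.1 (R 4.3.3; lmFit, eBayes with a trend) over all 12 libraries. Genotype and IL-4 were each tested with their interaction by a moderated F-test in place of the authors' test of counts, and the value given is the difference averaged over the other factor. P-values were adjusted by Benjamini-Hochberg over all genes tested, with a threshold of 0.05. Because of the pseudocount of 1, fold changes of low genes are understated. How many of all genes had no overlap between the libraries of different groups was not counted, so such statements only describe the values. Of the further lists, genes past the threshold were named. The 3 most correlated genes were given only for Trf, the called gene of the 10.

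Libraries that share a name in the labels were taken as 1 culture for differences within cultures, and the reported tests used no block. In data simulated from these libraries, 200 of 11204 genes were given a log2 change of 2, and 68% (genotype), 77% (IL-4) and 33.5% (interaction) of them were recovered. Alternatives changed the pseudocount, filter, scaling, variance model, block, contrast, covariate or cultures. P-values measure the spread between the libraries of a group, and the fit takes all libraries as independent. Both libraries of a culture thus count in the genotype tests. With culture as a block, 77 instead of 185 genes passed for genotype, and Lcn2 kept its call (adjusted p = 0.0392, limma). A check gene of the IL-4 labels is not reported here.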

Additional observations from a re-analysis of the deposited data

How the results depend on the processing

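For IL-4, the number of the 10 genes past the threshold was 1 in the analysis reported (Trf). It was 0 with no expression filter, with median-ratio scaling and with no variance trend, and 2 (Trf and Hmox1) with culture as a replicate block, with a 1-coefficient test and with the astrocyte score as covariate; quantile normalization left 1, Hmox1 in place of Trf. Leaving out 1 culture gave 0 to 2. For genotype it was 0 and leaving out 1 culture gave 0 to 1. For IL-4 in WT it was 0, against 1 with quantile normalization (Hmox1), 2 with the replicate block and 0 to 2 without 1 culture (2 without KI T15, 1 without KI T32). For IL-4 in KI it was 0, against 1 (Trf) with the replicate block. The counts for the interaction and for KI against WT in single treatments were 0 under every alternative run. With the block the adjusted p for IL-4 was 0.000206 for Trf and 0.0125 for Hmox1, in WT 0.00091 for Trf and 0.0139 for Hmox1, in KI 0.00337 for Trf, and for Lcn2 0.00412; it changed no other call of the 10 genes. The pairing behind the block rests on shared names alone. Deviations from group means correlated at 0.34, 0.104 and 0.104 within T13, T33 and T43 and at 0.378, 0.121 and 0.0792 within T15, T22 and T32, and every name matched itself best except T22, which matched T32.

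Directions turned only in values that had not passed. Relative to the microglial markers, where the median of all genes moved by more than 0.1 (0.13 to 0.80), the genotype differences became 0.49 (Fth1), 0.53 (Ftl1), 0.34 (Trf), 0.47 (Tfrc), 0.31 (Slc11a1), 0.48 (Slc11a2), 0.66 (Hmox1) and 0.66 (Ireb2). Quantile normalization gives each rank a fixed value, so its Fth1 differences of 0 were set by the ranks (first in 10 libraries, second in the other 2) and say nothing of Fth1. Ftl1 turned to 0.12 for genotype and 0.26 for IL-4 with quantile normalization, and to 0.067 for genotype with the astrocyte covariate. Without 1 culture, the genotype difference ran from −0.063 to 0.075 for Hmox1 and from −0.29 to 0.20 for Ireb2, and the IL-4 difference from −0.12 to 0.011 for Ftl1, from −0.18 to 0.087 for Slc11a2 and from −0.059 to 0.53 for Ireb2. The cause of these other turns was not tested.

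The IL-4 difference of Trf stayed between 1.06 and 1.32, with adjusted p from 0.000206 to 0.335. With no expression filter and with no variance trend the other called iron genes lost their calls too, Alas1 (adjusted p of 0.347 and 0.197) and Hfe (0.207 and 0.0855) for IL-4 and Lcn2 (0.213 and 0.0806) for genotype. Alas1 lost its call also with quantile normalization (0.0732), median-ratio scaling (0.0908) and TPM rescaled without Fth1 and Ftl1 (0.0509). Over all genes, 185 passed for genotype (3 to 575 under the alternatives, 4077 relative to the microglial markers) and 100 for IL-4 (46 to 240). Of the genotype calls, 145 of 185 were higher in KI, 90 of 146 with quantile normalization and 130 of 192 with median-ratio scaling. Leaving Fth1 and Ftl1 out of the TPM total, an alternative chosen after seeing the data, changed no call of the 10 genes, and summing the ferritin genes with their copies moved neither gene by more than 0.001. Because TPM does not keep the reads of each library, counting error could not be separated from the spread between cultures. How far this limits the genes with the fewest TPM (Ireb2 and Tfrc) was not measured.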
